A study of Homo sapiens with 3 samples.

Results

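Aminoacyl-tRNA synthetases are the enzymes that join each amino acid to its transfer RNA, and 34 of their genes were followed here. They were chosen by gene symbol, with earlier results of these arrays known: every probe listed under 1 of 20 symbols for the cytosolic enzymes or 14 symbols ending in 2 for the mitochondrial ones was taken, out of 25200 gene symbols on the array. GARS and KARS, counted with the cytosolic genes, each encode both the cytosolic and the mitochondrial enzyme. The 34 genes had 41 probes, of which 34 were detected in all 3 arrays, 1 in the control array only and 6 in none. A gene counted as measured when at least 1 of its probes was detected in at least 1 array, which held for 19 of 20 cytosolic and 13 of 14 mitochondrial genes, and for 11151 symbols in all. FARSB, a subunit of the cytosolic phenylalanine enzyme, and the mitochondrial NARS2 were not measured.

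The arrays came from LvM3b, a cell line from a human colon adenocarcinoma, and compared 1 control culture with 1 culture overexpressing miR-483 (named miR-483-5p in the series text) and 1 overexpressing miR-551a. All 3 were grown in DMEM with 10% fetal bovine serum and harvested at about 70% confluency from a 10 cm dish. Below, the overexpressing cultures are called miR-483 cells and miR-551a cells. The sources used here do not give how the microRNAs were overexpressed, what the control cells carried or whether a line was 1 clone. With 1 array per group there is no spread between replicates, so no difference below has an error or a test, and every value compares single cultures.

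Of 14 colon epithelial markers 12 were measured, including CDH17, VIL1 and LGALS4, while KRT20 was not detected and no probe carried the symbol EPCAM. Of the markers of other cells, 1 of 5 for leukocytes (CD68), 1 of 5 for fibroblasts (COL3A1), 0 of 4 for endothelium and 0 of 4 for hepatocytes were measured. Median intensity over 48803 probes lay between 84.9 and 88.0 in the 3 arrays, and 13291 to 13925 probes were detected. Some epithelial markers differed from control in both overexpressing cultures, among them GPA33 (-1.19 in miR-483 and -1.36 in miR-551a cells, log2) and KRT8 (0.76 and 1.49), and their part in the results below was not tested. Neither MIR483 nor MIR551A was among the symbols of the array.

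A synthetase activates its amino acid with ATP and loads it onto the matching transfer RNA, which then feeds the ribosome. The cytosol and the mitochondrion need separate sets, mostly made from separate nuclear genes. When an amino acid runs short, uncharged transfer RNA activates the kinase GCN2 (EIF2AK4), phosphorylated eIF2 favours translation of the transcription factor ATF4, and ATF4 with C/EBP partners induces amino acid transporters, amino acid synthesis enzymes and many cytosolic synthetases through a DNA element in their promoters. Because of that pathway the cytosolic genes are taken below in a group of 12 often described as ATF4 targets and a group of 8 others. This division was made from general knowledge and with earlier results of these arrays known.

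The mature sequence of the overexpressed microRNA that the RefSeq table holds (GRCh38.p14, chr1:3560710-3560730, minus strand) is given with its seed, bases 2 to 8, in capitals.
hsa-miR-551a: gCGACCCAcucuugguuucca
A promoter window is shown for each of 5 members: the 4 genes that were lowest in both overexpressing cultures, and NARS, which lay at control level. Each window runs 5′ to 3′ along the gene's strand from 250 bases before to 50 bases after a RefSeq transcription start (GRCh38.p14), and capitals mark the core of the amino acid response element described after the results for the genes.
MARS (chr12:57487818-57488117, plus strand): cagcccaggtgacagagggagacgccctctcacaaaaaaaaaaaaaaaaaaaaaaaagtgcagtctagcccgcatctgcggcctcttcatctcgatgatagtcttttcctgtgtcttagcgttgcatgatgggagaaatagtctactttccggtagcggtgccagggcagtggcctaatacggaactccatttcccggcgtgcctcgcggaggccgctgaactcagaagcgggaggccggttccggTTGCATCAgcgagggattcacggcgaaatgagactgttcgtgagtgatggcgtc
CARS (chr11:3057374-3057673, minus strand): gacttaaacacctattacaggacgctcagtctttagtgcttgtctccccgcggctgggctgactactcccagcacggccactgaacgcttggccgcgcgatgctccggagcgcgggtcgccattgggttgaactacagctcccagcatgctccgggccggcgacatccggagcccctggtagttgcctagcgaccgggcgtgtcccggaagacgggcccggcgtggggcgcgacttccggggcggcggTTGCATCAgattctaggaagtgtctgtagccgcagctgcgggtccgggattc
GARS (chr7:30594628-30594927, plus strand): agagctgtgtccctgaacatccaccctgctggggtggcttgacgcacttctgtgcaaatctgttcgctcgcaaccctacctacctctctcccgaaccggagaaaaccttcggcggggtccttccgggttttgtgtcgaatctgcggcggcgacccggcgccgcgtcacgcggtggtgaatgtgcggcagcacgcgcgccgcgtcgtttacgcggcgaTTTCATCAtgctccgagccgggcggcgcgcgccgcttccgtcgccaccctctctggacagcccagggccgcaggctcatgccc
SARS (chr1:109213643-109213942, plus strand): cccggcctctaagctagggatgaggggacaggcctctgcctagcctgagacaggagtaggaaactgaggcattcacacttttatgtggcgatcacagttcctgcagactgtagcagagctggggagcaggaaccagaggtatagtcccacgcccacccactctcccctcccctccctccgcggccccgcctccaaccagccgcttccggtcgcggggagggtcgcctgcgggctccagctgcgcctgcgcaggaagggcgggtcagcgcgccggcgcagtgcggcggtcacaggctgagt
NARS (chr18:57621787-57622086, minus strand): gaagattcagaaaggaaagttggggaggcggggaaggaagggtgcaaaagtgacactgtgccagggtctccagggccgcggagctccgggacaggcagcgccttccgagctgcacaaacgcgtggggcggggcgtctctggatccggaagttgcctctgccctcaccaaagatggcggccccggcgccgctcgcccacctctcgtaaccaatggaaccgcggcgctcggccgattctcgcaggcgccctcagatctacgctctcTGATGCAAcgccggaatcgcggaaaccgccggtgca

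Among the cytosolic genes, 4 were at least 1.5-fold lower than control in miR-483 cells and the same 4 were so in miR-551a cells: the methionine, serine, glycine and cysteine enzymes MARS, SARS, GARS and CARS. That is 4 of 19 measured cytosolic genes. Of all 11151 genes, 3.99% passed that line downward and 3.78% upward in miR-483 cells, and 5.49% and 5.57% in miR-551a cells. With undetected probes at their bound, as defined for PARS2 below, the downward shares were 2.47% and 4.05%. Of the 5575 genes brighter than the median, which hold 28 of the 32 measured synthetases, 1.92% and 3.25% were. The synthetases were proposed with these differences in view and both comparisons use the same control array, so these shares are set side by side without a test. In RNA from a whole culture, a lower level in every cell and a loss in some of the cells cannot be told apart.

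MARS, which also supplies the methionine that starts every cytosolic protein, had an intensity of 482.5 in the control, 269.8 in miR-483 cells and 332.1 in miR-551a cells. Both overexpressing arrays were below control, miR-483 cells by more. After normalization MARS was 2.10-fold lower in miR-483 cells, the only synthetase at least 2-fold below control there (0.619% of all genes were), and 1.67-fold lower in miR-551a cells. Of all genes, 0.484% differed by as much or more in that direction in miR-483 cells and 2.88% in miR-551a cells.

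SARS, which charges the serine transfer RNAs and also the selenocysteine transfer RNA with serine, read 783.6 in the control, 463.2 in miR-483 cells and 427.4 in miR-551a cells. It was 1.88-fold and 2.17-fold lower, so here miR-551a cells were the lower of both, by more than 2-fold (0.960% of all genes). As large a difference downward was found for 0.879% and 0.628% of all genes.

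GARS, the glycine enzyme of both compartments, read 3187.1, 1914.2 and 2065.7 in control, miR-483 and miR-551a cells. It was lower by nearly the same amount in both overexpressing arrays, 1.78-fold and 1.72-fold. CARS, the cysteine enzyme, had a pair of detected probes. The brighter read 879.0 in control, 582.4 in miR-483 cells and 531.9 in miR-551a cells, and the dimmer 238.1, 186.6 and 180.8. Both probes were lowest in miR-551a cells, with normalized log2 differences of -0.70 and -0.93 at the brighter and -0.54 and -0.67 at the dimmer probe. Their mean put CARS 1.54-fold lower in miR-483 cells and 1.74-fold lower in miR-551a cells. CARS in miR-483 cells lay just past the 1.5-fold line and fell short of it in 3 of 7 other settings, with values between -0.70 and -0.51 on the log2 scale.

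**Figure D1:**
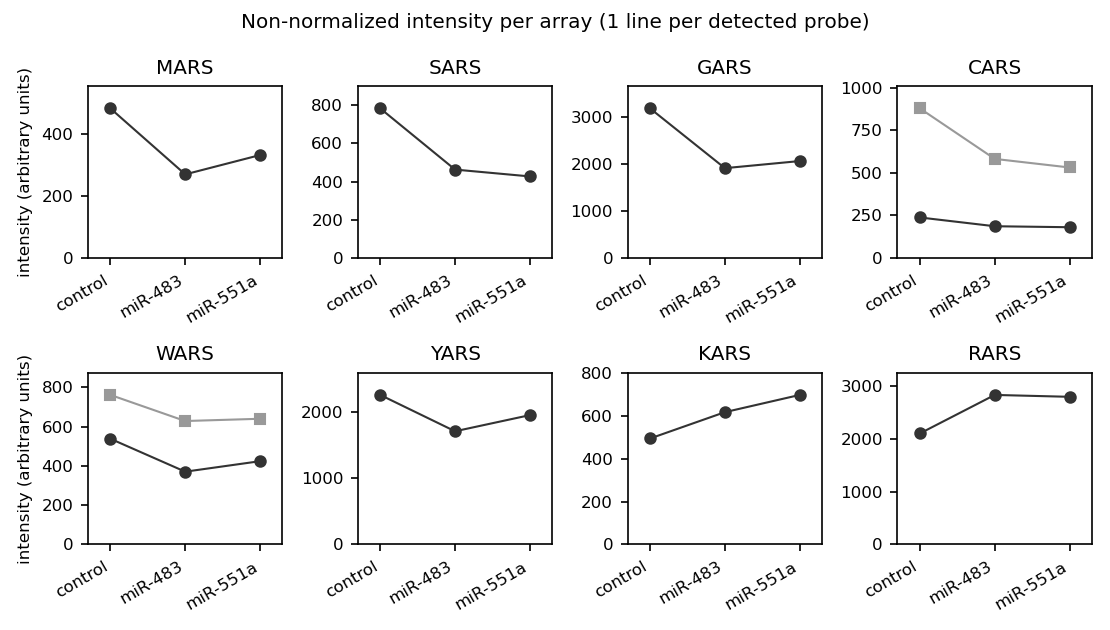
Non-normalized intensity (vertical axes, arbitrary units, starting at 0) of 8 cytosolic synthetase genes in the control, miR-483 and miR-551a arrays, 1 point per array and 1 line per detected probe. MARS, SARS, GARS, CARS, WARS and YARS are below control in both overexpressing arrays, and KARS and RARS above it; the scale differs between panels and levels of different probes are not comparable.

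WARS and YARS fell short of 1.5-fold in both cultures. WARS, the tryptophan enzyme, which interferon-gamma is known to induce, was measured by a pair of probes that differed by -0.66 and -0.38 in miR-483 cells and by -0.51 and -0.42 in miR-551a cells. Their mean was 1.43-fold and 1.38-fold lower, the values nearest to the line on its other side in each comparison. Of 13 interferon-gamma genes listed for comparison 6 were measured, with medians of -0.14 and -0.26. Of the 6, 0 were 1.5-fold lower in miR-483 cells and 1 in miR-551a cells, beside 3.99% and 5.49% of all genes. So few genes cannot be told from these shares, and a part of interferon in the WARS difference was not tested. YARS, the tyrosine enzyme, read 2255.6, 1707.6 and 1951.1 in control, miR-483 and miR-551a cells and was 1.40-fold and 1.29-fold lower.

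The remaining genes of the ATF4 group graded towards control. EPRS, a single protein that charges both glutamate and proline transfer RNAs, differed by -0.30 and -0.40 on the log2 scale in miR-483 and miR-551a cells. TARS, the threonine enzyme, differed by -0.38 and -0.21, and LARS, the leucine enzyme that also signals leucine supply to mTORC1, by -0.24 and -0.29. IARS, the isoleucine enzyme, differed by -0.16 and -0.12. AARS, the alanine enzyme, was at control level (4660.3, 4445.0 and 4853.8 in control, miR-483 and miR-551a cells, or -0.09 and 0.00), and so was NARS, the asparagine enzyme (399.1, 408.0 and 441.4, or -0.02 and 0.04). In this group 12 of 12 genes lay below 0 in miR-483 cells (50.7% of all genes did) and 11 of 12 in miR-551a cells (50.5% of all genes), with medians of -0.43 and -0.38. These counts include NARS in miR-483 cells and AARS and IARS in miR-551a cells, each below 0 in 7 of 8 settings.

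The other cytosolic genes did not share this. KARS, the lysine enzyme of both compartments, read 494.5 in control, 617.3 in miR-483 cells and 697.6 in miR-551a cells and was 1.25-fold and 1.35-fold higher. RARS, the arginine enzyme, read 2099.9, 2827.4 and 2791.9 and was 1.29-fold and 1.20-fold higher. Neither reached 1.5-fold, and both lay above control in each of 8 settings. QARS, the glutamine enzyme, was the lowest of this group at -0.25 and -0.32. DARS, the aspartate enzyme, lay at -0.18 in miR-483 cells and 0.17 in miR-551a cells, FARSA, the other phenylalanine subunit, at 0.05 and 0.28, VARS, the valine enzyme, at 0.02 and 0.20, and HARS, the histidine enzyme, at -0.01 and 0.03. The 7 measured genes had medians of 0.02 and 0.20. The first of these medians changed sign with the settings, from -0.04 to 0.03. In either array 0 of the 7 was 1.5-fold lower or higher, beside 7.78% and 11.1% of all genes. With 7 genes, a count of 0 lies near these shares.

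**Figure D2:**
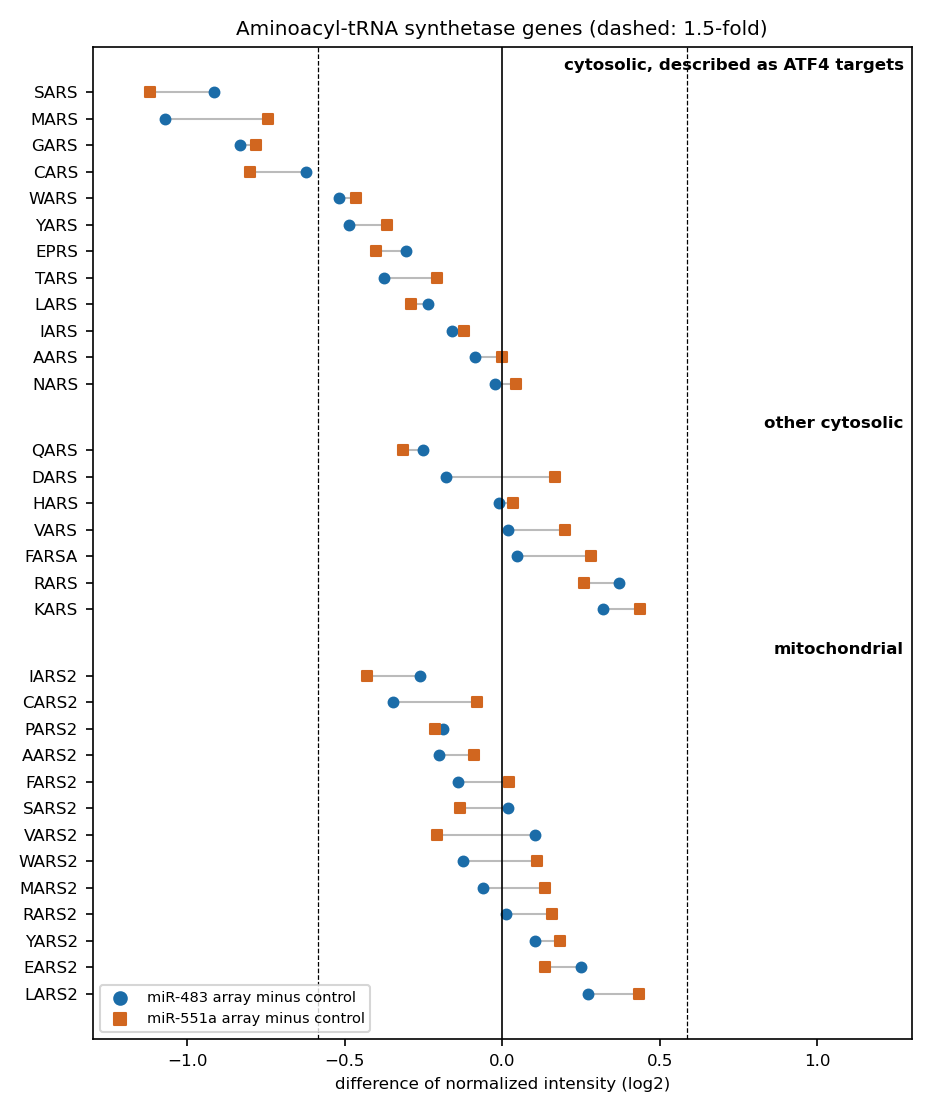
Difference of normalized log2 intensity from control (horizontal axis) for the 32 measured synthetase genes, with circles for miR-483 and squares for miR-551a cells and dashed lines at 1.5-fold. SARS, MARS, GARS and CARS lie left of the lower line with both symbols, and no cytosolic or mitochondrial gene lies right of the upper one.

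In the mitochondrial group no gene reached 1.5-fold in either direction in either array. Of all genes, 7.78% in miR-483 cells and 11.1% in miR-551a cells did. With 13 genes, a count of 0 lies near these shares. The mitochondrial medians were -0.06 in miR-483 cells and 0.02 in miR-551a cells. Genes below 0 numbered 7 of 13 and 6 of 13, beside 50.7% and 50.5% of all genes. Both counts include PARS2 at its measured value, though neither overexpressing array detected it. IARS2, for isoleucine, was lowest in miR-551a cells, with intensities of 2039.7 in control, 1805.9 in miR-483 cells and 1714.3 in miR-551a cells and differences of -0.26 and -0.43. CARS2, for cysteine, was lowest in miR-483 cells at -0.35 and lay at -0.08 in miR-551a cells. At the other end LARS2, for leucine, read 286.9, 341.6 and 389.9 and was 1.21-fold and 1.35-fold higher, and EARS2, the glutamate enzyme that also loads the mitochondrial glutamine transfer RNA with glutamate, differed by 0.25 and 0.14.

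AARS2, for alanine, differed by -0.20 and -0.09, FARS2, for phenylalanine, by -0.14 and 0.02, WARS2, for tryptophan, by -0.13 and 0.11, and MARS2, for methionine, by -0.06 and 0.14 as the mean of a pair of probes. SARS2, for serine, lay at 0.02 and -0.14, RARS2, for arginine, at 0.01 and 0.16, VARS2, for valine, at 0.10 and -0.21, and YARS2, for tyrosine, at 0.10 and 0.18. PARS2, for proline, was detected in the control array alone, close to the limit of detection, where it was at least 1.08-fold above miR-551a cells; for miR-483 cells no fold is given. The bound sets an undetected value at the lowest detected level of its array, where that is higher. With PARS2 at its bound the mitochondrial medians were 0.00 and 0.02.

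Set against the mitochondrial enzyme for the same amino acid, the cytosolic gene had the lower difference in 9 of 12 pairs in miR-483 cells and in 8 of 12 in miR-551a cells. The median of cytosolic minus mitochondrial difference was -0.33 and -0.54 on the log2 scale. EPRS stands in a pair of these comparisons, with EARS2 and with PARS2. The widest gaps were those of methionine, with MARS at -1.07 and MARS2 at -0.06 in miR-483 cells and -0.74 and 0.14 in miR-551a cells, and of serine, with SARS at -0.91 and SARS2 at 0.02, then -1.12 and -0.14. For leucine, glutamate and tyrosine the enzymes lay on opposite sides of control in both arrays. LARS was at -0.24 and LARS2 at 0.27 in miR-483 cells and -0.29 and 0.43 in miR-551a cells. EPRS was at -0.30 and EARS2 at 0.25, then -0.40 and 0.14. YARS was at -0.49 and YARS2 at 0.10, then -0.37 and 0.18. For arginine, alanine and isoleucine the cytosolic gene had the higher difference in both arrays, and for valine in miR-551a cells. The phenylalanine enzymes were not among the 12 pairs. There too the cytosolic gene had the higher difference in both arrays. FARSA lay at 0.05 and FARS2 at -0.14 in miR-483 cells, and at 0.28 and 0.02 in miR-551a cells.

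**Figure D3:**
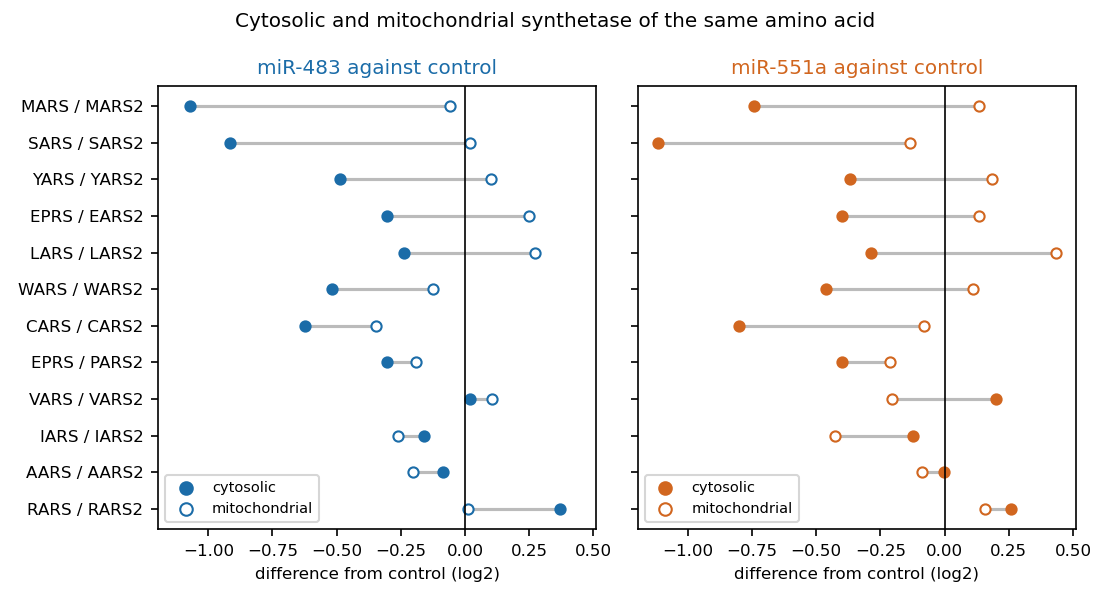
Difference from control (log2, horizontal axes) of the cytosolic (filled) and mitochondrial (open) synthetase of the same amino acid, 12 pairs, in the miR-483 array (left) and miR-551a cells (right). The filled points of MARS and SARS lie farthest left of their open partners, and RARS lies to the right of RARS2 in both panels. The phenylalanine enzymes are not among the pairs.

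Set against each other without the control, miR-483 and miR-551a cells differed by less than 1.5-fold for each of the 32 synthetases (PARS2 was detected in neither). Of all genes, 3.87% reached that size in 1 direction or the other, and of those brighter than the median 0.646% did. A count of 0 among 32 lies near these shares. The lowest value was DARS at -0.35 and the highest VARS2 at 0.31 on the log2 scale for miR-483 cells minus miR-551a cells. MARS was the second lowest cytosolic gene at -0.33 and SARS the highest at 0.20. Medians were -0.05 for the cytosolic and -0.11 for the mitochondrial genes.

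Class I and class II enzymes differ in the fold of the catalytic domain, and each class held 2 of the 4 lower genes (MARS and CARS in class I, SARS and GARS in class II). Medians were -0.28 and -0.34 over 10 cytosolic class I genes in miR-483 and miR-551a cells and -0.09 and 0.03 over 9 class II genes. EPRS, which holds a domain of each class, was counted in class I only. The multisynthetase complex is a particle that holds 8 of these synthetases on 3 scaffold proteins. Of its synthetases MARS alone was 1.5-fold lower, while KARS and RARS were among the higher genes, and the 8 had a median of -0.21 in both arrays. The 11 measured cytosolic genes outside the complex had medians of -0.38 and -0.21. The scaffold gene AIMP2 (listed as JTV1) differed by 0.22 and 0.06 and EEF1E1 by 0.24 and 0.19, and AIMP1 (listed as SCYE1) was detected in the control array only.

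The choice of members by symbol had not used promoter sequence, but the division into the ATF4 group and the others rests partly on it. Of 34 members 28 had at least 1 window in the RefSeq promoter table, 37 windows in all. Of these genes 14 were matched through an older symbol, and for 4 (GARS, MARS, QARS and SARS) another gene shares the older symbol, so the gene whose current symbol adds the number 1 was taken. Windows were searched on both strands for TGATGNAA, the core of the amino acid response element bound by ATF4 with C/EBP partners, and for CACGTG, the E-box bound by MYC with MAX. No match of one overlapped a match of the other in these windows.

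The response element core was found in 7 of 16 cytosolic genes (43.8%), in 1 of 12 mitochondrial genes (8.33%) and in 4.46% of 27305 genes in the table. All 7 belonged to the ATF4 group, where 10 genes had a window, against 0 of 6 other cytosolic genes. That group is described as ATF4 targets partly because such sites are known in its promoters, so this share is not independent of how the group was made. In AARS, CARS, IARS, MARS, NARS and TARS the variable base N was C, giving TGATGCAA, and in GARS it was A, giving TGATGAAA. Counted with the transcription start as 0, the match began at -4 in MARS, -2 in CARS, -33 in GARS, -13 in IARS, 2 in TARS, 14 in NARS and -187 in AARS. In the windows printed above it reads on the strand opposite to the gene in MARS, CARS and GARS and on the gene's own strand in NARS. CARS, GARS and TARS each have another window without a match, and those of CARS and GARS are not printed above.

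A match did not go with a lower level in every gene. NARS and AARS hold the core and lay at control level, and SARS, the lowest synthetase of miR-551a cells, has no match in either of its windows, nor has WARS. The 7 cytosolic genes with a match had medians of -0.38 and -0.21 in miR-483 and miR-551a cells, and the 8 measured genes with a window but no match -0.13 and -0.14. These 8 ranged from SARS to RARS or KARS, so the sets overlapped over most of their range. The E-box was found in IARS and in the mitochondrial genes CARS2, EARS2 and MARS2, 4 of 28 members (14.3%) against 8.77% of all genes in the table. A match describes letters in these windows and was not tied to binding in these cells.

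Other ATF4 targets, a list of 36 genes without the synthetases that was drawn up with earlier results of these arrays known and is no independent evidence, showed larger differences. Of 33 measured, 17 were at least 1.5-fold lower in miR-483 cells and 13 in miR-551a cells when undetected values stood at their bound. Of all genes, 2.47% and 4.05% were so at their bound. The medians of the list were -0.59 and -0.56. Among the 12 that passed 1.5-fold downward in both were the asparagine synthetase ASNS (-1.28 and -1.13), the serine synthesis enzymes PSAT1 (-1.22 and -1.14) and PHGDH (-0.79 and -0.77), the alanine transaminase GPT2 (-1.03 and -1.05), the pseudokinase TRIB3 (-0.94 and -0.94) and the mTORC1 inhibitor DDIT4 (-1.59 and -2.05). PCK2, the mitochondrial PEP carboxykinase, was at -0.98 and -1.06. CBS, an enzyme of cysteine synthesis, was at least 1.86-fold lower in miR-483 cells, where it was not detected, and -1.03 in miR-551a cells. Taken at their measured values, the counts were 19 and 14, where 3.99% and 5.49% of all genes passed, and the medians -0.62 and -0.56. SESN2, detected in control only, then passed in both although its bounds were 1.01-fold and 1.12-fold. At measured values 4 of the 33 genes lay above control in miR-483 cells and 3 in miR-551a cells. Among them in both were ATF5 (0.26 and 0.61) and ALDH18A1 (0.07 and 0.28). Under settings without background correction the medians of this list came to between -0.47 and -0.38.

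ATF4 itself had 3 detected probes that did not move alike. The brightest read 14653.7 in control, 11221.7 in miR-483 cells and 11848.7 in miR-551a cells, or -0.39 and -0.37 after normalization. The next differed by -0.73 and -0.68 and the dimmest by 0.47 and 0.49. Its translation, through which the pathway acts, was not measured by these arrays. Of the eIF2 kinases, which lie upstream, EIF2AK4 (GCN2) differed by -0.09 and 0.14, EIF2AK3 (PERK) by 0.03 and -0.03, EIF2AK1 (HRI) by 0.21 and -0.05 and EIF2AK2 (PKR) by 0.26 and 0.50. The GCN2 partner GCN1L1 differed by 0.09 and 0.07. The eIF2 subunit gene EIF2S1 was at 0.49 and 0.56. IMPACT, an inhibitor of GCN2 activation, differed by -0.07 and -0.27 at 1 probe, and its other probe was detected in miR-483 cells only.

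Synthetase-related genes outside the 34 were mostly near control. MTFMT, which formylates the mitochondrial initiator methionyl-tRNA, read 390.6, 574.2 and 683.9 in control, miR-483 and miR-551a cells at its detected probe. It was the 1 gene of 10 at least 1.5-fold higher in both, by 0.60 and 0.79 on the log2 scale. Of all genes, 3.78% in miR-483 cells and 5.57% in miR-551a cells were that much higher. In miR-483 cells MTFMT lay just past the line, at 1.51-fold. Its other probe was not detected. QRSL1, a subunit of the amidotransferase that turns glutamate into glutamine on mitochondrial transfer RNA, was detected in control only and was at least 1.06-fold and 1.17-fold lower. The other subunits differed by 0.11 and -0.25 (GATC) and by 0.22 and -0.14 (PET112L). TARS2 (0.01 and 0.14) and HARS2 (-0.12 and -0.29) are further mitochondrial enzymes; HARS2 was also an older symbol of DTD1, which has its own probe here. TARSL2, a second cytosolic threonine enzyme, was at least 1.24-fold and 1.37-fold lower. SEPSECS (0.33 and 0.14) and PSTK (0.04 and 0.49) complete selenocysteine on the transfer RNA that SARS loads.

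Of 21 measured genes of transfer RNA maturation and quality control, 18 lay above control in each array, with medians of 0.18 and 0.33. For these and the counts that follow, 50.7% of all genes lay below control in miR-483 cells and 50.5% in miR-551a cells. POP7, a subunit of RNase P, was at 0.73 and 0.85. Transfer RNA modification genes had medians of 0.13 and 0.09 over 18 genes. The cytosolic elongation factors, which bring charged transfer RNA to the ribosome and move it on, lay below control in 4 of 5 measured genes in miR-483 cells and in 5 of 5 in miR-551a cells. Their medians were -0.16 and -0.20, beside -0.24 and -0.21 for the cytosolic synthetases. None was 1.5-fold lower, where 3.99% and 5.49% of all genes were. EEF1G was the lowest at -0.46 and -0.57. EEF1A1, counted as below control, was at -0.07 and -0.04. Its brightest probe was the brightest of each array, so quantile normalization set the difference of that probe to 0, and the sign of EEF1A1 says little. Of 76 mitochondrial ribosomal protein genes, 58 lay above control in miR-483 cells and 53 in miR-551a cells, with medians of 0.12 and 0.11, and the 8 mitochondrial translation factors had medians of 0.00 in both.

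**Figure D4:**
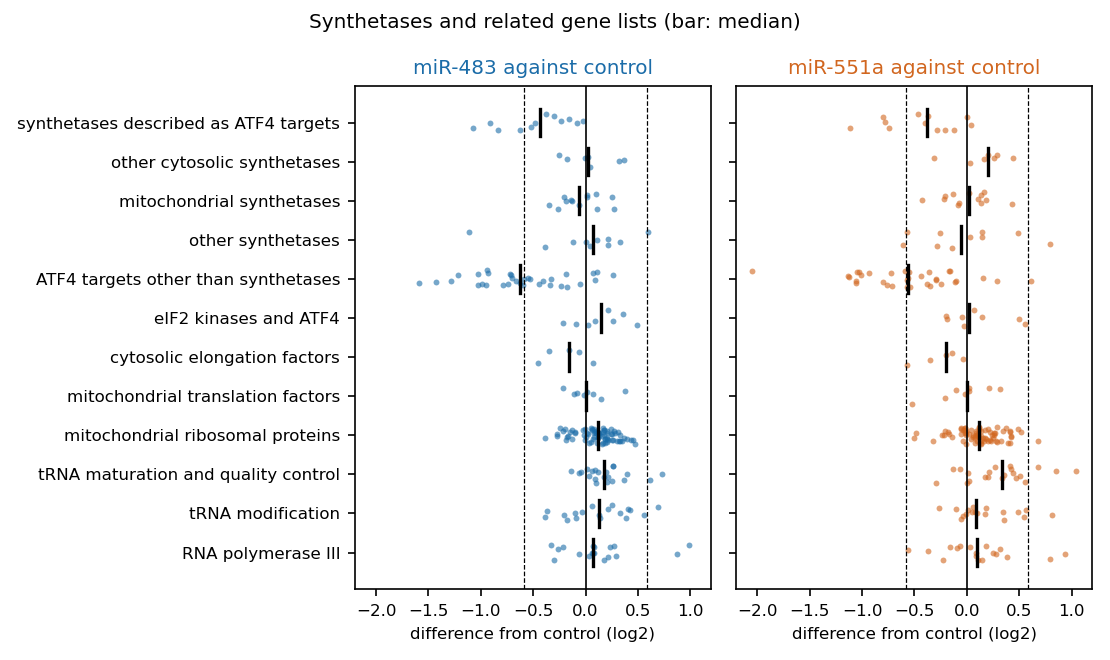
Difference from control (log2, horizontal axes) for the genes of 12 lists, 1 point per measured gene, in the miR-483 array (left) and miR-551a cells (right), with a bar at each median and dashed lines at 1.5-fold. The 12 synthetases described as ATF4 targets and the 33 other ATF4 targets have their medians left of 0 (-0.43 and -0.62 in the left panel, at measured values), and those of the mitochondrial synthetases and translation factors lie near 0.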

How the data were processed

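Total RNA of 3 cultures was labelled as biotinylated cRNA and hybridised to Illumina bead arrays, 1 per group, per the labels' protocols. The authors deposited non-normalized intensity values with a detection column beside each, per the file headers, whose values are a fraction from 0 to 1 and lie near 1 for bright probes. A score above 0.99 was read as detected. The sources used here do not name the scanner software. A second deposited table, of normalized intensity, was not used: its miR-483 column equals 0.934 times the non-normalized values of miR-551a, not of miR-483. Its miR-551a column equals 0.968 times that array's own values.

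The 3 arrays were processed together by limma 3.58.1 (R 4.3.3). Its neqc function estimates background from the detection scores (mean 76.2 in control, 80.6 and 79.0 in the miR-483 and miR-551a arrays), subtracts it by the normexp model, adds an offset of 16 and quantile-normalizes log2 values. A gene is the mean of its probes detected in at least 1 array; targets given only as UniGene clusters were left out. Differences were described at 1.5-fold, with no test. Where 1 array of a comparison did not detect a probe, a bound was also computed. For it the value was raised to the lowest detected level of that array if that was higher, which makes the ratio a lower bound. Only ratios and results described as bounds use raised values. All other differences, medians, counts and shares use the normalized values as measured. The pipeline was tested on 3 arrays made by simulation with known changes. Named genes were every listed member, all genes of the scaffold, eIF2 kinase and other-synthetase lists, and up to 8 genes of each other list that passed 1.5-fold in both arrays in the same direction; a few lowest, highest or marker genes named besides were chosen after their values were seen, and some genes of these lists are not reported here. The members and lists were chosen with earlier results of these data known. Alternatives were no background correction, offset 50, median centring, median scaling without background correction, no detection filter, detection on all 3 arrays, and the brightest probe of a gene.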

Additional observations from a re-analysis of the deposited data

How the results depend on the processing

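Under 7 other settings the cytosolic median stayed below 0, from -0.24 to -0.17 in miR-483 cells and from -0.23 to -0.11 in miR-551a cells. The 12 ATF4-group synthetases ranged from -0.43 to -0.38 and from -0.38 to -0.29. The mitochondrial median ranged from -0.13 to -0.03 and from 0.02 to 0.07. The count of cytosolic genes at least 1.5-fold lower was 4 in each setting for miR-551a cells. For miR-483 cells it was 3 without background correction, with offset 50 and under median scaling, where CARS fell short, and 4 in the others. No synthetase past 1.5-fold changed sign. With undetected values at their bound, an alternative chosen after seeing the data, the synthetase counts stayed at 4 and 0 in the cytosolic and mitochondrial groups. Of 1148 comparisons of single genes and further lists with their main value, 46 moved by more than 0.1 on the log2 scale, and 192 of 192 on the medians and counts of the synthetase groups did not move by more than that, or by more than 1.5 times for counts. No paired analysis was possible because each group has 1 array.

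The same control array stands in both comparisons, so a deviation of that 1 culture and a difference shared by both overexpressing cultures cannot be told apart.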

Other observations

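RNA polymerase III, which transcribes the transfer RNA genes, showed 2 subunit genes more than 1.5-fold above control in both overexpressing cultures. Of all genes, 3.78% in miR-483 cells and 5.57% in miR-551a cells were at least 1.5-fold higher. POLR3G, a subunit found in an alternative form of the enzyme in stem and tumour cells, read 122.6 in control, 184.8 in miR-483 cells and 185.0 in miR-551a cells at its detected probe, a log2 difference of 0.99 and 0.94. Its other probe was not detected. The control value of POLR3G lay near the limit of detection, so the size of its difference depends on the background correction. POLR3K read 297.5, 502.7 and 502.8, or 0.87 and 0.79. Over 18 measured genes of the polymerase and its factors the medians were 0.08 and 0.09, so these differences were not shared by the list.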
